A study of Mus musculus with 16 samples.

Results

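With earlier results of these data known, the tubulin genes Tuba1a, Tuba1b, Tuba1c, Tuba4a, Tuba8, Tubb2a, Tubb2b, Tubb4b, Tubb5 and Tubb6 were chosen and taken from the mouse heart count table by symbol. They are 10 of its 55573 genes, 5 for alpha-tubulin and 5 for beta-tubulin, and all 10 passed edgeR's filter on low counts, which left 16857 genes to be tested. RNA came from the heart apex of 16 male wild-type mice in 4 groups of 4. Pups had been injected under the skin on postnatal day 1 with AAV9, a virus that reaches heart muscle, in which the chicken cardiac TNT promoter drove either GFP or the long noncoding RNA Cardinal (Gm12295). As adults they had either transverse aortic constriction (TAC), which narrows the aorta and loads the left ventricle with pressure, or a sham operation without the ligation. Both operations were done with each virus (AAV9-GFP or AAV9-Cardinal), and all hearts were collected 4 weeks after surgery. Every group, controls included, carried a virus, so no mouse without AAV9 was compared, and the promoter is active in cardiomyocytes while the RNA came from all cells of the apex.

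Alpha- and beta-tubulin bind each other as a dimer, and these dimers add head to tail to form microtubules. In heart muscle cells microtubules carry cargo, position organelles and resist shortening of the cell, and a dense, detyrosinated network linked to desmin is a known feature of pressure overload. Each tubulin gene makes a slightly different protein, often most of all in the acidic tail at the end. There, enzymes remove and replace the last tyrosine of alpha-tubulin and add chains of glutamate. Cells also hold tubulin mRNA in check: when free dimers build up, the factor TTC5 recognises the first amino acids of tubulin as it leaves the ribosome and the mRNA is degraded.

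The tails are where many of the isoforms differ. The last 30 coding bases, read from the GENCODE M21 transcripts, are shown for 8 genes with the final codon before the stop in capitals.
Tuba1b: gagggggaggaagaaggagaggagTACtaa
Tuba1c: gaaggagacgatgagggtgaggaaTATtaa
Tuba4a: tatgaggacgaggatgagggagaaGAGtag
Tuba8: gaagaagagaatgagggggaggaaTTTtaa
Tubb2a: gaggaggaggagggtgaagatgagGCTtga
Tubb2b: gaggaggaagagggcgaggatgagGCTtga
Tubb4b: gaggaggaggctgaggaggaggtgGCTtag
Tubb5: ttcggagaggaggcagaagaggagGCCtaa
Tuba1b and Tuba1c end in a tyrosine codon (TAC or TAT). Tuba4a ends in a glutamate codon and Tuba8 in a phenylalanine codon, so neither mRNA encodes the tyrosine that the detyrosination cycle acts on. Tubb2a and Tubb2b differ in the bases shown but not in the amino acids these encode. Between 10 and 12 of the last 20 codons encode an acidic amino acid in each of the 10 genes.

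The start is nearly the same in all of them. The first 12 coding bases are atgCGTGAGTGC in Tuba1a, Tuba1b and Tuba1c, atgCGCGAGTGC in Tuba4a and atgAGGGAATGC in Tuba8, with the 3 codons after the start codon in capitals. In the beta-tubulin genes shown they are atgCGCGAGATC in Tubb2a, atgCGAGAGATC in Tubb2b, atgAGGGAGATC in Tubb4b and atgAGGGAAATC in Tubb5. These are the codons whose products are read in tubulin mRNA decay.

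Positions are those of GRCm38. Tuba1b (ENSMUSG00000023004, 98931425 to 98934565) and Tuba1a (ENSMUSG00000072235, 98949837 to 98953703) are neighbours on the minus strand of chromosome 15, and Tuba1c (ENSMUSG00000043091, 99029891 to 99038110) follows on the plus strand. Tubb2a (ENSMUSG00000058672, 34074274 to 34078007) and Tubb2b (ENSMUSG00000045136, 34126748 to 34130466) are neighbours on the minus strand of chromosome 13. Tuba4a (ENSMUSG00000026202) lies on chromosome 1 from 75214228 to 75219865, Tuba8 (ENSMUSG00000030137) on chromosome 6 from 121210696 to 121226854, Tubb4b (ENSMUSG00000036752) on chromosome 2 from 25222160 to 25224702 and Tubb5 (ENSMUSG00000001525) on chromosome 17 from 35833921 to 35838306. All 10, Tubb6 (ENSMUSG00000001473) included, are annotated as protein coding.

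Neighbouring genes are close copies, which limits what a read of 50 bases can tell. The coding sequences of Tuba1a and Tuba1b are 98.3% identical, those of Tuba1b and Tuba1c 97.9%, and those of Tubb2a and Tubb2b 96.5%, whereas Tuba4a and Tuba8 share 80.8% and Tubb4b and Tubb5 82.2%. The longest run without a mismatch is 551 bases over the Tubb2 pair. A read from the following stretch, which is 1 read long, could have come from either gene.
Tubb2a and Tubb2b, from coding base 610: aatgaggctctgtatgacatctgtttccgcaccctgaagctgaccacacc
Of all 50-base stretches of a gene's transcripts, 75.5% of those of Tuba1a, 75.1% of Tuba1b, 52.7% of Tuba1c, 49.6% of Tubb2a, 36.9% of Tubb2b and 41.3% of Tubb4b also occurred in another annotated gene. For Tubb5 the figure was 0.0892% and for Tubb6 0%, so these 2 genes can be read on their own. Of the 35.4% of Tuba4a, 34.6% were shared with Stk16, which overlaps it on the other strand with 250 to 413 counts per mouse, and of the 14.7% of Tuba8, 14.5% with the antisense gene Gm15856 with 9 to 20 counts.

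How reads that match several copies were counted is not stated, so whether they were spread over copies was not tested. The processed pseudogene Gm14150 held 48.6% to 53.5% of the counts of Tuba1b in every mouse, Gm3226 held 46.0% to 53.0%, and Tubb4b-ps1 held 25.7% to 31.1% of the counts of Tubb4b. A further copy, Gm17383, was listed at 0 in all 16 mice although 46.6% of the stretches of Tuba1a occur in it. The noncoding gene AC157548.1, in which 46.6% of them also occur, held 45.8% to 53.5% of the counts of Tuba1b. The ratio of Tuba1c to Tuba1b counts stayed between 0.835 and 0.946 over the 16 mice, and that of Tubb2b to Tubb2a between 0.392 and 0.508. Because of the stretches they share, values of the 3 Tuba1 genes and of the Tubb2 pair are uncertain as single genes, and their sums are given beside them.

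Gene counts of a mouse summed to 16441997 to 21904589, and the 10 tubulin genes took 9933 to 20593 of them, or 0.0598% to 0.0948%. A mouse's floor of 3 counts corresponds to 0.126 to 0.195 CPM (counts scaled to a common library size with TMM factors), which covers counting error only, and every tubulin value was far above it. Replicate numbers are those of the labels, and p-values measure the spread between these mice. Cardiomyocyte markers were high, with Myh6, Tnnt2 and the other 6 summing to 36626 to 50556 CPM per mouse. The 4 atrial markers summed to at most 2.53 CPM. Cardinal lay between 3.42 and 7.24 CPM in the 8 AAV9-GFP mice and between 18.3 and 93.9 CPM in the 8 AAV9-Cardinal mice, with AAV9-Cardinal TAC replicate 1 the highest.

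To compare isoforms with each other, CPM were divided by the total exon length of each gene. Tuba4a, an alpha-tubulin of muscle and brain, was the most abundant in AAV9-GFP sham hearts at 95.3 ± 16.1 CPM per kb (SD, n = 4). Tuba8, a divergent alpha-tubulin of heart, skeletal muscle and testis, followed at 51.7 ± 11.9 CPM per kb, and Tubb4b, the main beta-tubulin here, at 40.2 ± 4.54 CPM per kb. The mice of Tuba4a all lay above those of Tuba8, whereas those of Tuba8 and Tubb4b overlapped.

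Lower levels formed a second tier. Tubb5, a broadly expressed beta-tubulin, stood at 17.9 ± 2.11 CPM per kb, Tuba1a at 16.8 ± 2.28 and Tuba1b at 15.3 ± 0.989, each overlapping the next. Tuba1c followed at 11.0 ± 0.745, then Tubb2a at 8.74 ± 1.35, Tubb6 at 6.81 ± 0.606 and Tubb2b at 2.72 ± 0.492 CPM per kb. Tubb2a and Tubb6 overlapped, and Tubb2b was below all others. The order was the same in AAV9-Cardinal sham hearts. In both TAC groups Tuba1a and Tubb5 changed places, with overlapping mice, and Tuba4a, Tuba8 and Tubb4b stayed the first 3.

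Expressed as shares, Tuba4a made up 50.1% ± 2.12 (SD, n = 4) of summed alpha-tubulin in AAV9-GFP sham hearts. Tuba8 made up 27.0% ± 1.85, Tuba1a 8.87% ± 0.866, Tuba1b 8.13% ± 0.780 and Tuba1c 5.88% ± 0.665. The 2 genes without a final tyrosine codon thus took most of the alpha-tubulin mRNA. Among beta-tubulin genes, Tubb4b held 52.6% ± 2.73, Tubb5 23.5% ± 0.670, Tubb2a 11.4% ± 1.36, Tubb6 8.92% ± 0.252 and Tubb2b 3.56% ± 0.578. The size of a share rested on the length used: that of Tuba4a ran from 39.4% to 63.6% and that of Tubb4b from 46.5% to 59.4% over 3 other choices of length, in all of which they stayed the largest of their family. Lower shares moved too: Tuba1a ran from 5.49% to 19.6%, Tuba1b from 5.24% to 17.2% and Tuba8 from 17.1% to 23.2%. Tubb5 ran from 15.4% to 33.1% and Tubb2a from 7.80% to 15.5%. With only unique 50-base stretches as the length, Tuba1a and Tuba1b lay above Tuba8, and Tubb2a above Tubb5, so the order of these genes depends on the length chosen. Counts of matching copies are not part of the shares. In AAV9-GFP sham hearts the Tuba1 genes had 84.1 CPM without and 165 CPM with their copies, and Tubb4b 83.9 and 120 CPM. The summed levels per kb and the alpha to beta ratio below leave the copies out too. Shares are a description and were not tested.

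**Figure D1:**
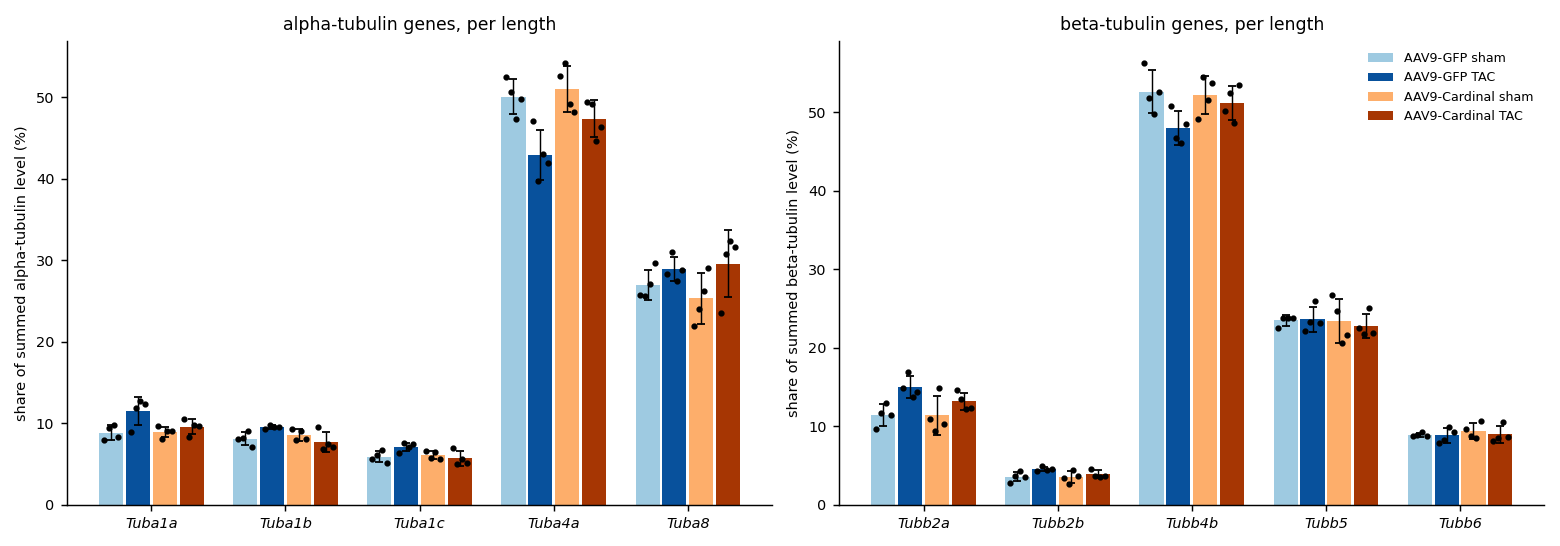
Share of each gene in the summed alpha-tubulin (left) or beta-tubulin (right) level of a mouse, in percent, after division by exon length. Bars are means of 4 mice, error bars SD and points single mice; Tuba4a fell from 50.1% to 43.0% with TAC in AAV9-GFP hearts, while Tubb2a went from 11.4% to 14.99%.

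Some of these shares differed between sham and TAC mice in AAV9-GFP hearts. The share of Tuba4a was 52.5%, 50.7%, 47.4% and 49.8% in the sham mice and 47.1%, 39.8%, 43.1% and 41.9% in the TAC mice, so that every TAC mouse lay below every sham mouse. The mean difference was -7.12 percentage points. Tuba1a went from 8.87% ± 0.866 to 11.5% ± 1.71 with overlapping mice, Tuba1b from 8.13% ± 0.780 to 9.54% ± 0.236 without overlap, and Tuba1c from 5.88% ± 0.665 to 7.09% ± 0.533 with overlap. Tuba8 stood at 28.9% ± 1.49 after TAC, overlapping sham. With unique stretches as the length, the difference in share went from 1.89 to 0.19 percentage points for Tuba8 and from 2.61 to 4.36 for Tuba1a.

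Within beta-tubulin the shares of the Tubb2 pair were higher in TAC mice. Tubb2a was 9.64%, 11.7%, 12.9% and 11.5% in AAV9-GFP sham mice and 14.9%, 16.9%, 13.7% and 14.4% in AAV9-GFP TAC mice, and Tubb2b went from 3.56% ± 0.578 to 4.55% ± 0.263, both without overlap. Tubb4b went from 52.6% ± 2.73 to 48.0% ± 2.13 with overlap. Tubb5 (23.6% ± 1.63 after TAC) and Tubb6 (8.83% ± 0.928) differed from sham by less than the spread between mice.

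In AAV9-Cardinal hearts the mice of sham and TAC overlapped in the share of each of the 10 genes. Tuba4a stood at 51.0% ± 2.87 in sham and 47.4% ± 2.27 in TAC hearts, and Tuba8 at 25.3% ± 3.08 and 29.6% ± 4.11. Tubb2a stood at 11.4% ± 2.45 and 13.2% ± 1.11, and Tubb4b at 52.2% ± 2.40 and 51.2% ± 2.18. Whether the shift of a share differed between the viruses was not tested.

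The summed level showed what the shares leave out. Summed beta-tubulin was 71.3, 75.4, 70.9 and 88.0 CPM per kb in AAV9-GFP sham mice and 101, 99.1, 85.2 and 99.9 in AAV9-GFP TAC mice, a ratio of means of 1.26, with the highest sham mouse above the lowest TAC mouse. In AAV9-Cardinal hearts it was 67.5, 66.1, 78.6 and 69.1 in sham and 89.2, 89.5, 86.2 and 99.6 CPM per kb in TAC mice, a ratio of 1.296 without overlap. The mean was higher after TAC with both viruses, and the mice were apart only with AAV9-Cardinal.

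Summed alpha-tubulin is mostly Tuba4a and Tuba8. In AAV9-GFP hearts it was 190.1 ± 30.8 CPM per kb in sham and 205 ± 12.8 in TAC mice, with overlap, and in AAV9-Cardinal hearts 174 ± 9.34 and 223 ± 25.1, without overlap. With Tuba4a and Tuba8 left out, the 3 Tuba1 genes summed to 43.1 ± 3.96 and 57.6 ± 3.66 CPM per kb with AAV9-GFP and to 41.2 ± 2.31 and 50.7 ± 3.36 with AAV9-Cardinal, TAC above sham in every mouse of both viruses. The ratio of alpha to beta was 2.48 ± 0.152 in AAV9-GFP sham and 2.13 ± 0.0636 in AAV9-GFP TAC hearts, where the mice did not overlap, and 2.49 ± 0.268 and 2.44 ± 0.201 in AAV9-Cardinal hearts, where they did.

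**Figure D2:**
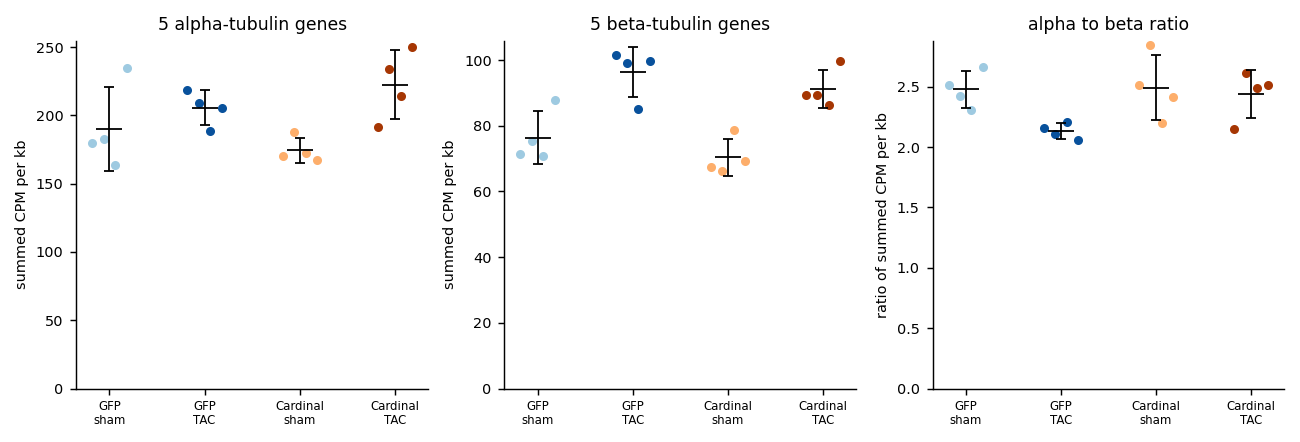
Summed level of the 5 alpha-tubulin genes and of the 5 beta-tubulin genes, in CPM per kb of exon, and the ratio of both, for each mouse (points) with mean and SD of 4 mice. AAV9-GFP sham replicate 4, at 235 CPM per kb, stands above the other 3 sham mice of alpha-tubulin, which lie between 164 and 183.

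In AAV9-GFP hearts, the comparison of TAC with sham asks how pressure load changes each gene without added Cardinal. Here 7 of the 10 tubulin genes rose past an adjusted p of 0.05 in edgeR's quasi-likelihood test, compared with 8.49% of all tested genes that rose, and 0 fell, compared with 8.92% that fell. With DESeq2 7 also rose, and no gene fell there or at an unadjusted p under 0.05. In 6 genes every TAC mouse was above every sham mouse, which held for 10.1% of all tested genes. The median log2 fold change was 0.35 over the 10 genes and 0.0050 over all tested genes. As the members were chosen with earlier results of these data known, these values only describe them, and no excess was tested.

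The Tubb2 pair, beta-tubulins best known from neurons, changed most. Tubb2a was 11.1, 14.3, 14.7 and 16.2 CPM in sham and 24.3, 27.0, 18.9 and 23.2 CPM in TAC mice. All TAC mice were above all sham mice, and the log2 fold change was 0.73 (standard error 0.17, a 1.66-fold rise, edgeR adjusted p = 0.0081). Tubb2b was lower throughout, at 4.63, 6.24, 6.91 and 7.14 CPM in sham and 10.1, 11.2, 8.57 and 10.5 CPM in TAC mice, again without overlap (log2 fold change 0.69, standard error 0.17, edgeR adjusted p = 0.012). As the pair shares reads, these are not separate results: counted together with the copy Tubb2a-ps2, a fit chosen after seeing the data, they rose by 0.71 on the log2 scale (standard error 0.17, adjusted p = 0.0092 by edgeR).

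The 3 Tuba1 genes, broadly expressed alpha-tubulins, rose by less. Tuba1a was 25.6, 30.9, 28.9 and 35.4 CPM in sham and 35.4, 44.8, 43.2 and 45.8 CPM in TAC mice. The highest sham and the lowest TAC mouse were level, and the log2 fold change was 0.48 (standard error 0.099, adjusted p = 0.0034 by edgeR), with an exact two-sided permutation p of 0.057, where 4 mice against 4 allow no value under 0.029. Tuba1b was 27.3, 28.2, 27.7 and 31.4 CPM in sham and 38.0, 38.6, 33.6 and 36.8 CPM in TAC mice (log2 fold change 0.36, standard error 0.068, edgeR adjusted p = 0.0022).

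Tuba1c had the lowest p of the 10 genes. It was 23.3, 25.4, 25.0 and 27.4 CPM in sham and 31.7, 36.0, 30.6 and 34.8 CPM in TAC mice (log2 fold change 0.40, standard error 0.074, edgeR adjusted p = 0.0019). In Tuba1b and Tuba1c no mice overlapped. Summed with their 10 matching copies, again a fit chosen after seeing the data, the Tuba1 genes went from 165 ± 13.7 to 218 ± 13.9 CPM without overlap. Their log2 fold change was 0.40 (standard error 0.066, adjusted p = 0.00078 by edgeR).

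Tubb5 and Tubb6, whose reads are unique, also rose. Tubb5 was 53.3, 59.8, 56.2 and 69.5 CPM in sham and 74.7, 76.7, 73.6 and 77.0 CPM in TAC mice, with a narrow spread after TAC and no overlap (log2 fold change 0.34, standard error 0.074, edgeR adjusted p = 0.0055). Tubb6, a beta-tubulin that disturbs the microtubule network when made in excess, was 15.2, 16.4, 16.02 and 18.7 CPM in sham and 19.5, 19.8, 20.6 and 22.6 CPM in TAC mice (log2 fold change 0.32, standard error 0.089, edgeR adjusted p = 0.023). Its mice did not overlap either, but its call was lost with an offset for GC content (adjusted p = 0.057) and without AAV9-GFP sham replicate 1, 2 or 3 or AAV9-GFP TAC replicate 7 (adjusted p up to 0.074).

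The 3 most abundant genes did not pass the test. Tuba4a was 349, 342, 287 and 432 CPM in sham and 381, 308, 300.4 and 319 CPM in TAC mice (log2 fold change -0.11, standard error 0.12, edgeR adjusted p = 0.60), and its estimate turned to 0.0038 without AAV9-GFP sham replicate 4, its highest mouse. Tuba8 was 105, 106, 100.4 and 157 CPM in sham and 140.3, 147, 117 and 134 CPM in TAC mice (log2 fold change 0.20, standard error 0.16, edgeR adjusted p = 0.46). The same sham mouse was the only sham mouse of Tuba8 above 106 CPM, and without it the log2 fold change was 0.38 and still not past the threshold (adjusted p = 0.11). Tubb4b was 83.8, 81.7, 73.6 and 96.5 CPM in sham and 108, 96.5, 81.9 and 101 CPM in TAC mice (log2 fold change 0.21, standard error 0.098, edgeR adjusted p = 0.17), with overlap.

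**Figure D3:**
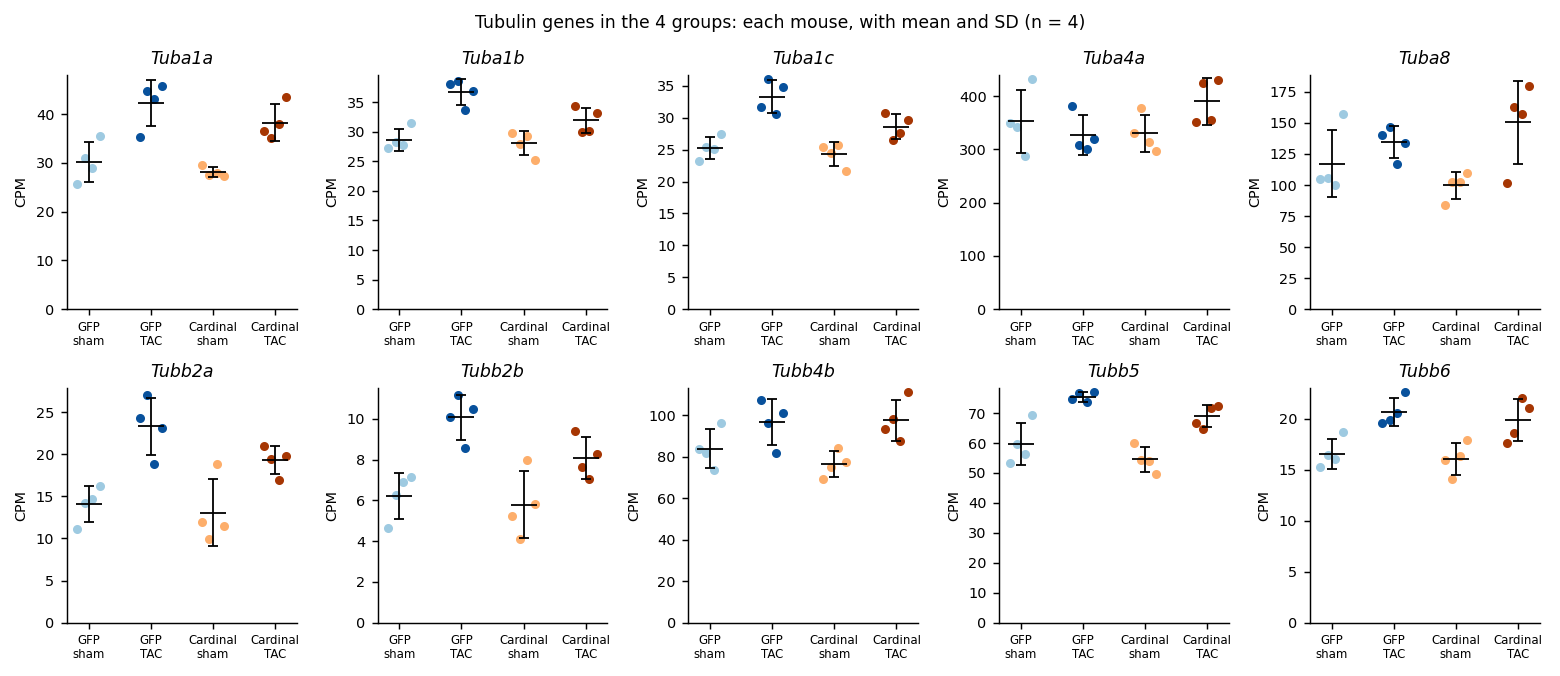
CPM of each tubulin gene in every mouse (points), with mean and SD of the 4 mice of a group; each panel has its own scale from 0. In AAV9-GFP hearts the 4 TAC mice lie above the 4 sham mice in Tuba1b, Tuba1c, Tubb2a, Tubb2b, Tubb5 and Tubb6, and in AAV9-Cardinal hearts in Tuba1a, Tuba1b, Tuba1c, Tubb4b and Tubb5.

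In AAV9-Cardinal hearts, the same comparison shows the response to pressure load with Cardinal added. All 10 log2 fold changes were above 0, with a median of 0.34 against -0.00047 over all tested genes. The limit set by how the members were chosen holds here too. Past the threshold, 4 of 10 rose, compared with 3.1% of all tested genes, and 5 had every TAC mouse above every sham mouse, compared with 6.51%. This count was not stable: it was 6 with DESeq2, 2 without the filter on low counts, and between 0 and 5 when a mouse was left out. It was 0 without AAV9-Cardinal sham replicate 2 or AAV9-Cardinal TAC replicate 5 or 6, and 2 without AAV9-Cardinal sham replicate 1, AAV9-Cardinal TAC replicate 4, AAV9-GFP sham replicate 1 or 2, or AAV9-GFP TAC replicate 3 or 7.

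Tuba1a and Tubb5 rose with both viruses. Tuba1a was 29.5, 27.4, 28.01 and 27.3 CPM in AAV9-Cardinal sham and 36.5, 35.0, 38.0 and 43.5 CPM in AAV9-Cardinal TAC mice (log2 fold change 0.45, standard error 0.099, edgeR adjusted p = 0.018). Tubb5 was 60.1, 54.4, 53.9 and 49.8 CPM in sham and 66.8, 64.9, 71.8 and 72.5 CPM in TAC mice (log2 fold change 0.34, standard error 0.074, edgeR adjusted p = 0.016). Neither gene had overlapping mice.

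Tuba8 and Tubb4b passed the threshold here and not with AAV9-GFP. Tuba8 was 84.2, 102, 103 and 109.9 CPM in sham and 102, 163, 157 and 179 CPM in TAC mice (log2 fold change 0.59, standard error 0.16, edgeR adjusted p = 0.046). Replicate 1 was the only TAC mouse within the sham range, with p = 0.11 in an exact two-sided permutation test. Tubb4b was 69.3, 75.3, 84.5 and 77.6 CPM in sham and 93.5, 98.1, 87.7 and 111 CPM in TAC mice, without overlap (log2 fold change 0.35, standard error 0.098, edgeR adjusted p = 0.048). The calls of Tuba8 and Tubb4b were lost in 13 and 10 of the 16 fits with a mouse left out.

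For Tuba1b and Tuba1c the test and the mice disagreed. Tuba1b was 29.7, 27.9, 29.3 and 25.2 CPM in sham and 34.3, 30.0, 30.2 and 33.1 CPM in TAC mice, and Tuba1c was 25.4, 24.5, 25.8 and 21.6 CPM and then 30.8, 26.5, 27.6 and 29.6 CPM. No mice overlapped in either gene (exact two-sided permutation p = 0.029, the smallest possible), yet the log2 fold changes, 0.18 for Tuba1b (standard error 0.069, edgeR adjusted p = 0.13) and 0.23 for Tuba1c (standard error 0.075, edgeR adjusted p = 0.080), missed the threshold. With the copies summed, the Tuba1 genes rose by 0.27 on the log2 scale (standard error 0.066, adjusted p = 0.027 by edgeR).

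The remaining 4 genes had overlapping mice and did not pass. Tubb2a was 11.9, 9.94, 18.9 and 11.5 CPM in sham and 20.97, 19.4, 17.0 and 19.8 CPM in TAC mice (log2 fold change 0.56, standard error 0.17, edgeR adjusted p = 0.066), and Tubb2b 5.24, 4.09, 7.98 and 5.84 CPM and then 9.42, 7.61, 7.03 and 8.29 CPM (log2 fold change 0.49, standard error 0.18, edgeR adjusted p = 0.12). AAV9-Cardinal sham replicate 3 was the highest sham mouse of the pair, and without it both genes passed (log2 fold changes of 0.80 and 0.69, adjusted p = 0.0086 and 0.030). Tubb6 was 15.95, 14.1, 16.3 and 17.9 CPM in sham and 17.7, 18.6, 22.03 and 21.1 CPM in TAC mice (log2 fold change 0.31, standard error 0.090, edgeR adjusted p = 0.054). Tuba4a was 331, 377, 314 and 298 CPM in sham and 351, 425, 355 and 429.7 CPM in TAC mice (log2 fold change 0.24, standard error 0.12, edgeR adjusted p = 0.25).

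**Figure D4:**
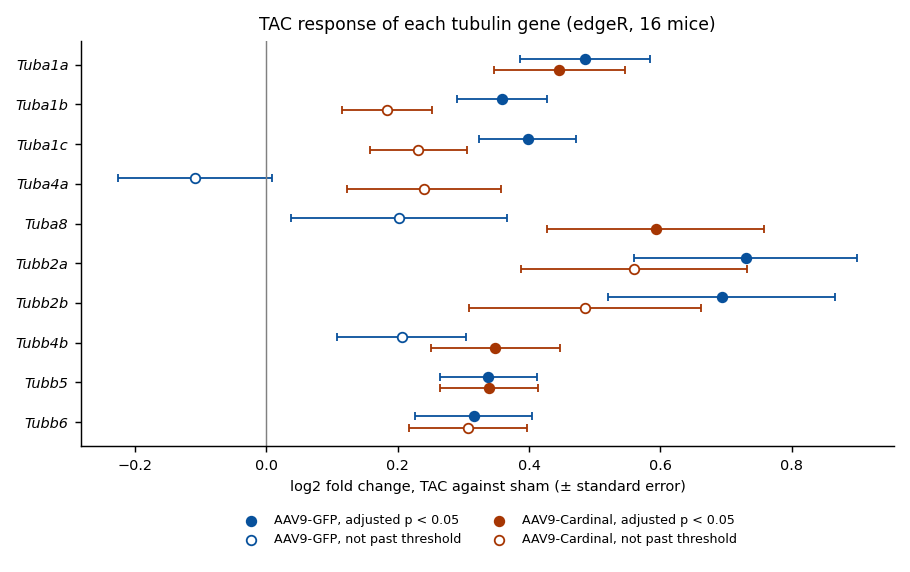
Log2 fold change of each tubulin gene, TAC against sham, with its standard error, in AAV9-GFP (blue) and AAV9-Cardinal hearts (brown), from edgeR's fit of 16 mice; filled points have an adjusted p under 0.05. Tuba4a is at -0.11 with AAV9-GFP and 0.24 with AAV9-Cardinal, the widest gap besides Tuba8 (0.20 and 0.59).

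Direct comparison of the viruses asks whether added Cardinal moved the tubulin genes. In TAC hearts 0 of 10 genes were called in either direction by edgeR or DESeq2, compared with 0.0771% of all tested genes that edgeR called lower with AAV9-Cardinal, and 3 had an unadjusted p under 0.05, as did 2528 of all 16857 tested genes. DESeq2 called 428 of all genes here. The 3 were Tuba1b (log2 fold change -0.20, standard error 0.068, adjusted p = 0.18), Tuba1c (-0.22, standard error 0.074, adjusted p = 0.18) and Tuba4a (0.25, standard error 0.12, adjusted p = 0.32). Tubb5 alone did not overlap, lying between 64.9 and 72.5 CPM with AAV9-Cardinal and between 73.6 and 77.0 CPM with AAV9-GFP (1 of 10 genes, compared with 3.19% of all tested genes with AAV9-Cardinal mice lower; log2 fold change -0.13, standard error 0.074, edgeR adjusted p = 0.44, exact two-sided permutation p = 0.029).

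The other 6 genes overlapped in TAC hearts. Log2 fold changes of AAV9-Cardinal against AAV9-GFP were -0.32 (standard error 0.17) for Tubb2b, -0.28 (0.17) for Tubb2a, -0.14 (0.098) for Tuba1a, -0.057 (0.088) for Tubb6, 0.012 (0.098) for Tubb4b and 0.16 (0.16) for Tuba8. The Tuba1 genes with their copies summed were 218 ± 13.9 CPM with AAV9-GFP and 192 ± 11.5 CPM with AAV9-Cardinal, where the mice did not overlap, a ratio of means of -0.19 on the log2 scale that was not tested. In sham hearts 0 of 10 genes were called by edgeR or DESeq2 and 0 had an unadjusted p under 0.05, where 437 of all tested genes did. Of all tested genes 0.00593% were called lower by edgeR, and DESeq2 called 4 in either direction. All 10 estimates there lay between -0.23 (Tuba8, standard error 0.16) and -0.030 (Tuba1b, standard error 0.069).

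The difference between the 2 TAC responses, AAV9-Cardinal minus AAV9-GFP, was called in 0 of 10 genes by edgeR or DESeq2, with 0 at an unadjusted p under 0.05. Of all tested genes edgeR called 0.0119% in either direction, DESeq2 called 137, and 1722 had an unadjusted p under 0.05. It was 0.39 for Tuba8 (standard error 0.23, adjusted p = 0.58) and 0.35 for Tuba4a (standard error 0.17, adjusted p = 0.49). For Tubb2b it was -0.21 (standard error 0.25), for Tuba1b -0.17 (0.097), for Tubb2a -0.17 (0.24), for Tuba1c -0.17 (0.10), for Tubb4b 0.14 (0.14), for Tuba1a -0.039 (0.14), for Tubb6 -0.0086 (0.13) and for Tubb5 0.00051 (0.10). A gene called with 1 virus and not with the other is therefore not shown to respond differently. Both TAC responses and the virus comparisons share mice, so their values are given side by side and not correlated.

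In such bulk RNA, more cells of a type and more RNA per cell cannot be told apart. The 8 fibroblast markers summed to 536 to 603 CPM in AAV9-GFP sham and 902 to 1155 CPM in AAV9-GFP TAC mice, where 4 of 8 rose. With AAV9-Cardinal they summed to 520.0 to 568 and 535 to 975 CPM, where 1 of 8 rose, with none of the markers at 0. Sham and TAC means with AAV9-GFP were 23.0 and 168 CPM for Postn, 70.5 and 198 for Col3a1, 39.8 and 109 for Col1a1 and 57.3 and 118 for Col1a2. The other markers differed less: Dcn had 306 and 318 CPM, Pdgfra 21.6 and 24.5, Tcf21 2.74 and 3.52, and Dpt 45.7 and 40.7. Cardiomyocyte markers summed to 47397 to 50556 CPM in AAV9-GFP sham and 36626 to 43911 CPM in AAV9-GFP TAC mice, where 6 of 8 fell, and to 45625 to 50514 and 43877 to 48306 CPM with AAV9-Cardinal, where 1 of 8 fell. Endothelial markers went from 479 to 586 up to 556 to 676 CPM with AAV9-GFP (2 of 7 rose) and from 507 to 533 up to 533 to 649.6 CPM with AAV9-Cardinal (0 of 7 called by edgeR). Beside the counts of these and the next markers, 8.49% of all 16857 tested genes rose and 8.92% fell with AAV9-GFP. With AAV9-Cardinal 522 rose and 570 fell. The part of these cell markers in the tubulin values was not tested.

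In AAV9-GFP hearts, edgeR called 1 of 6 smooth muscle and pericyte markers higher and 1 lower, 1 of 8 macrophage markers higher, 2 of 6 markers of dividing cells higher, 0 of 5 red blood cell markers, and 1 of the 4 tested neuron and Schwann cell markers lower. Markers of dividing cells summed to 4.30 to 11.5 CPM in sham and 9.64 to 20.1 CPM in TAC mice, with a median log2 fold change of 1.09. Those of smooth muscle and pericytes summed to 879 to 957 and 763 to 813 CPM. Among these, Abcc9 had means of 364 CPM in sham and 229 CPM in TAC hearts, and Myh11 20.3 and 17.8 CPM. The other markers were not lower: Rgs5 had 496 and 500 CPM, Kcnj8 18.4 and 20.8, Tagln 11.4 and 11.7, and Cnn1 0.480 and 1.10. Summed neuron and Schwann cell markers lay between 1.51 and 7.91 CPM and lymphocyte markers between 4.02 and 8.44 CPM over the 16 mice.

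Other tubulin genes were rare. Of 10 listed, 7 were tested and 0 called in either TAC comparison. Tubg1, the gamma-tubulin that starts new microtubules, was 12.3 ± 1.36 CPM in AAV9-GFP sham and 11.7 ± 1.03 in AAV9-GFP TAC hearts, and Tubg2 2.89 ± 0.168 and 2.88 ± 0.565 CPM. The delta-tubulin gene Tubd1 was 4.78 ± 0.196 and 4.28 ± 0.296 CPM, and Tubb4a 2.13 ± 0.328 and 2.23 ± 0.182 CPM. Tubb3, a neuronal beta-tubulin, was 0.713 ± 0.217 and 1.36 ± 0.600 CPM (log2 fold change 0.93, edgeR adjusted p = 0.051), and Tuba3b, Tube1, Tuba3a, Tubb1 and Tubal3 stayed under 1 CPM on average in each group.

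Genes that handle tubulin were counted by list. Beside each count below stand all 16857 tested genes, of which 8.49% rose and 8.92% fell with AAV9-GFP. With AAV9-Cardinal 522 rose and 570 fell. The lists were not tested as sets. Of 21 genes for tubulin folding (the CCT ring, prefoldin and the tubulin cofactors), 1 rose and 3 fell with TAC in AAV9-GFP hearts. The cofactor Tbcc rose (log2 fold change 0.49, adjusted p = 0.013), and the prefoldin subunits Pfdn6 (-0.39, adjusted p = 0.0051) and Pfdn5 (-0.23, adjusted p = 0.017) fell, all by edgeR. Arl2 also fell (-0.22, edgeR adjusted p = 0.0060) and is named beyond the 3 largest changes. None of the 21 was called with AAV9-Cardinal. Of the 3 genes of tubulin mRNA decay, which fell outside the naming rule and are named after their values were seen, edgeR called 0 with either virus: Ttc5, the sensor, had log2 fold changes of 0.18 and 0.44 (adjusted p = 0.39 and 0.059), Scaper, its adaptor, -0.27 and -0.27, and Cnot11, a subunit of the deadenylase, -0.012 and 0.052.

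Of 29 enzymes that modify tubulin, 21 were tested, and 1 rose and 2 fell with TAC in AAV9-GFP hearts. The glutamylase subunit Ttll1 fell (log2 fold change -0.94, edgeR adjusted p = 0.0011) and also with AAV9-Cardinal (-0.65, edgeR adjusted p = 0.027), the deglutamylase Agtpbp1 fell (-0.49, edgeR adjusted p = 0.026), and the deacetylase Hdac6 rose (0.31, edgeR adjusted p = 0.0039). With AAV9-Cardinal 1 rose and 1 fell. Microtubule-associated proteins had more calls, with 7 of 32 tested genes higher and 1 lower with AAV9-GFP and 1 higher with AAV9-Cardinal. Those with the largest change were the kinase Dclk1 (0.97, edgeR adjusted p = 0.00096), the severing enzyme Spast (0.65, edgeR adjusted p = 0.0046) and Map1a (0.61, edgeR adjusted p = 0.017).

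Motors and the desmin network also had members that rose. Of 28 tested motor genes 4 rose and 0 fell with AAV9-GFP, and 2 rose with AAV9-Cardinal: Kif5b, the kinesin heavy chain, went from 108 ± 3.47 to 166 ± 13.1 CPM (log2 fold change 0.61, edgeR adjusted p = 0.00014) with AAV9-GFP and from 105 ± 11.2 to 158 ± 14.6 CPM (0.59, edgeR adjusted p = 0.0013) with AAV9-Cardinal. The dynein subunit Dync1li1 had log2 fold changes of 0.65 and 0.43 (adjusted p = 7.4e-05 and 0.0063 by edgeR), and Klc4, a kinesin light chain, by 0.28 with AAV9-GFP (edgeR adjusted p = 0.025). Of 7 genes of the desmin network, 4 rose with AAV9-GFP and 3 with AAV9-Cardinal. Des, desmin itself, went from 1122 ± 48.3 to 1604 ± 78.2 CPM (0.52, edgeR adjusted p = 3.2e-05) and from 1122 ± 79.1 to 1357 ± 57.5 CPM (0.27, edgeR adjusted p = 0.010), while Flnc and Vim had log2 fold changes of 1.07 and 0.67 with AAV9-GFP (edgeR adjusted p = 0.0024 and 0.00033).

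No gene of these lists was called between the viruses in TAC hearts. Median log2 fold changes for TAC with AAV9-GFP were -0.013 for folding, -0.00028 for modifying enzymes, 0.16 for associated proteins, 0.12 for motors and 0.33 for the desmin network, beside 0.0050 over all tested genes.

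The genes whose pattern over the 16 mice was nearest to a tubulin gene were found by the smallest root mean square difference in log2 CPM, each centred on AAV9-GFP sham, among those of at least 10 CPM. For Tuba1c these were the pseudogenes Gm3226 (0.035), Gm6682 (0.046) and Gm5620 (0.047), then Tuba1b (0.048) and the pseudogene Gm14150 (0.048). Each of these pseudogenes shares more stretches with Tuba1b than with Tuba1c. For Tubb2b the nearest was Tubb2a (0.091), followed at some distance by Pmepa1 (0.18), Tbx20 (0.20), Prnp (0.21) and Carhsp1 (0.21). Tubb6, which shares no reads, was nearest to Arhgef12 (0.064), Myo18b (0.071), Agfg1 (0.084), Sptan1 (0.085) and Golga3 (0.085).

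Promoters of the tubulin genes were searched for 3 motifs on both strands, in the 250 bases before the RefSeq start (GRCm38.p6). They were available for 8 of the 10 genes, after Tubb6 was set aside and with no entry for Tubb2b. The cyclic AMP response element TGACGTCA was found in 1.55% of 32851 promoters, TATAAA in 12.4% and CCAAT in 33.8%. Only Tubb2a held the response element and TATAAA, once each. It changed most among these 8 with TAC in AAV9-GFP hearts (Tuba8 did in AAV9-Cardinal hearts), but it shares reads with Tubb2b. No link between a motif and a change was tested. CCAAT occurred 5 times in Tubb4b, 2 times in Tubb5 and 1 time each in Tuba1a and Tuba1c, and none of the 3 motifs was found in Tuba1b, Tuba4a or Tuba8. The promoters of Tubb2a and Tubb4b are shown with every match in capitals. Tubb4b held the most matches, and Tubb2a was the only gene with more than 1 of the motifs.
Tubb2a, chr13:34078009-34078258, minus strand: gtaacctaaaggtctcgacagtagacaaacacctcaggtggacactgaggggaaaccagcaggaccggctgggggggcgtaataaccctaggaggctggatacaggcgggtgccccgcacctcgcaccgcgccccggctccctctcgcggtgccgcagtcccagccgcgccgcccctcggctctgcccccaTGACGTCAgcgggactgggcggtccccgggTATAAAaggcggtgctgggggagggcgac
Tubb4b, chr2:25224703-25224952, minus strand: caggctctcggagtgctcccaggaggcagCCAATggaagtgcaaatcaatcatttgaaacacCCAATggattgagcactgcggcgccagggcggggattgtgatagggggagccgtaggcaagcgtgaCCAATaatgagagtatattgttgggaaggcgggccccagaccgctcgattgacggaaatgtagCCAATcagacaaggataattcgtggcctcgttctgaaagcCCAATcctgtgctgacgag
These matches describe the sequence only, and no binding was measured.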

How the data were processed

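Raw counts were deposited by the authors as 1 table of Ensembl genes against 16 mice, made from poly(A)-selected, single-end 50-base sequencing. The submitters' processing notes name FastQC, HISAT2 2.1.0, edgeR 3.26.1 and GRCm38. The counting program, annotation, use of strand and treatment of reads with several matches are not given in the sources used here. Genes were named with GENCODE M21 (55480 of 55573).

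Counts were fitted in R 4.3.3 with edgeR 4.0.16 (TMM, expression filter, quasi-likelihood test, all 16 mice in 4 groups, 5 contrasts), with Benjamini-Hochberg adjustment over 16857 genes and a threshold of 0.05. Log2 CPM used a prior count of 2. Shares and sums used CPM per kb of merged exons. The fit was checked on simulated data. Alternatives were DESeq2 1.42.0, RLE factors, other low-count filters, the 8 mice compared alone, a robust fit, a replicate block, mitochondrial genes left out, a GC offset, each mouse left out, other lengths for shares and, chosen after seeing the data, near-identical genes merged. Named genes were all 10 tubulin genes, other tubulins of at least 1 CPM, up to 3 genes per list with the largest called change in AAV9-GFP hearts, genes called between the viruses in TAC hearts, and the 5 genes nearest to Tubb2b, Tubb6 and Tuba1c. Members and lists were chosen with earlier results of these data known. Single values were compared by exact permutation (70 labelings) only where fit and overlap disagreed. Figures were drawn in Python 3.11.15 with matplotlib 3.10.9. Some sequences are not reported here.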

Additional observations from a re-analysis of the deposited data

Results flagged for a closer look

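In 4 of 96 sets of 4 mice, a mouse lay farther from the rest than Dixon's 95% critical value allows (the gap to the nearest mouse divided by the range), and chance gives about 1 in 20. Tuba8 was 157 CPM in AAV9-GFP sham replicate 4, and 100.4 to 106 CPM in the other 3 mice. The share of Tubb2b was 4.60% in AAV9-Cardinal TAC replicate 1 and 3.55% to 3.71% in the others, and that of Tubb5 was 22.5% in AAV9-GFP sham replicate 1 and 23.7% to 23.8% in the others. Summed beta-tubulin was 85.2 CPM per kb in AAV9-GFP TAC replicate 4 and 99.1 to 101 in the others. No tubulin gene moved one way with TAC in every AAV9-GFP mouse and the other way in every AAV9-Cardinal mouse.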

How the results depend on the processing

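For TAC in AAV9-GFP hearts, of 160 values with a mouse left out (10 genes, 16 mice), 155 kept their direction and their side of the threshold, as did 92 of 96 under other settings. In AAV9-Cardinal hearts 126 of 160 and 83 of 96 did. Summed alpha- and beta-tubulin kept their direction throughout.

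DESeq2 called 428 genes between the viruses in TAC hearts, 4 in sham hearts and 137 for the difference in response, where edgeR called 17, 2 and 2. Without the low-count filter, 615 genes and 2 tubulin genes passed in AAV9-Cardinal hearts (1092 and 4 with it), and 3 genes between the viruses in TAC hearts. That last count was 35 with at least 1 CPM in 4 mice, 3 with the 8 mice compared alone and 30 without mitochondrial genes. The difference in response turned to 0.0040 without the filter and 0.058 with a GC offset for Tubb6, and to -0.0021 with 1 CPM for Tubb5. Between the viruses in TAC hearts Tubb6 turned to 0.0091 with the GC offset.

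Deviations of same-numbered mice had correlations of -0.040 to 0.21 (median 0.054, 4 of 16 pairs over 0.1), and those of differently numbered mice -0.19 to 0.22 (median -0.013, 4 of 80 over 0.1). As a hint from the data, 5 of 13 mice were closest to a mouse of their own number. Since not every pair was over 0.1 and no label gives the numbers a meaning, they were not taken as pairs. With the replicate number as a block, 4 tubulin genes were called with AAV9-GFP (not Tubb2b, Tubb5 or Tubb6, adjusted p = 0.061, 0.056 and 0.055 by edgeR) and 0 with AAV9-Cardinal, and 31 genes in all in AAV9-Cardinal hearts, 0 between the viruses in TAC hearts, 1 in sham hearts and 1 for the difference. The block turned Tuba8 between the viruses in TAC hearts to -0.083, and the difference in response to 0.064 for Tubb2a, 0.032 for Tubb2b and -0.071 for Tubb5.

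With a mouse left out, genes called ran from 384 to 1436 in AAV9-Cardinal hearts (without AAV9-Cardinal TAC replicates 5 and 1), 0 to 535 between the viruses in TAC hearts, 2 to 79 for the difference (both highest without AAV9-Cardinal TAC replicate 1) and 1 to 3 in sham hearts. Tubulin genes called with AAV9-Cardinal ran from 0 to 5. Log2 fold changes that crossed 0 ran from -0.20 to 0.0038 for Tuba4a with AAV9-GFP and from -0.057 to 0.067 for Tubb4b between the viruses in TAC hearts. In sham hearts they ran from -0.058 to 0.017 for Tuba1b, -0.18 to 0.017 for Tuba4a, -0.34 to 0.0076 for Tubb2a, -0.31 to 0.031 for Tubb2b and -0.10 to 0.013 for Tubb6. For the difference in response they ran from -0.12 to 0.033 for Tuba1a, -0.28 to 0.066 for Tubb2a, -0.080 to 0.052 for Tubb5 and -0.070 to 0.045 for Tubb6. Except where fewer mice or another set of genes was used, the cause was not tested.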
